A study of Mus musculus with 6 samples.

Results

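The class I TRIM genes Trim67, Trim9, Trim36, Trim46, Mid1 and Mid2 were examined in the inguinal subcutaneous white adipose tissue (SC-WAT) of Egr1-/- and Egr1+/+ mice. Class I is the branch of the TRIM family whose proteins join a COS box to a fibronectin repeat and a B30.2 domain, and all 6 were found by symbol among the 47069 gene identifiers of the count tables. Trim67 entered this set because it passed the threshold for differential expression in the same comparison, so its own contrast is described here without a test. The other 5 were listed for the architecture of their proteins. RNA was sequenced from the inguinal fat pads of 3 Egr1+/+ and 3 Egr1-/- females, 1 library per mouse. All were C57BL/6 mice aged 2 weeks that had received no treatment named in the labels. The Egr1-/- allele carries a LacZ insertion in the 5′ part of Egr1 and a frameshift before the DNA-binding domain. It is present in every cell of the animal, so differences are not tied to adipocytes, and part of the Egr1 transcript can still be made.

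TRIM proteins are ubiquitin ligases built from a RING domain, B-boxes and a coiled coil. In class I members these are followed by a COS box, which binds microtubules, a fibronectin type III repeat and a B30.2 (SPRY) domain that holds substrates. Trim67 and Trim9 are best known from neurons, where they bind the netrin receptor DCC and shape axon growth. Trim46 bundles microtubules at the start of the axon, Trim36 is known from the sperm acrosome, and Mid1, the gene mutated in Opitz syndrome, and its close relative Mid2 act on protein phosphatase 2A through the alpha4 protein. EGR1 is a zinc finger transcription factor that binds GC-rich DNA and is induced by growth signals.

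The promoter windows of Trim67 and Mid2 are shown because EGR1 is the factor that was removed, Trim67 is the member that differed most between genotypes and Mid2 holds the only match to the EGR1 consensus among the members. Windows run from 250 bases before to 50 bases after the RefSeq start site, on GRCm38.p6, and were found for 5 of the 6 members (Trim36 had none). The Trim67 window lies at chr8:124792769-124793068 on the plus strand and the Mid2 window at chrX:140664706-140665005 on the plus strand. Capitals mark the EGR1 consensus GCGNGGGCG and the GC box GGGCGG on either strand, which can overlap each other.
Trim67: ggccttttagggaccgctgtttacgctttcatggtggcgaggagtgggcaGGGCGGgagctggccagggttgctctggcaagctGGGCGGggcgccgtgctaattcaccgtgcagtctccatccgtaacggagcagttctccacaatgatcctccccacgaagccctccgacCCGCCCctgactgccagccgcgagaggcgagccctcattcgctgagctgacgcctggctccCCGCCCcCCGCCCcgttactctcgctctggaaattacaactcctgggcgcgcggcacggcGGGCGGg
Mid2: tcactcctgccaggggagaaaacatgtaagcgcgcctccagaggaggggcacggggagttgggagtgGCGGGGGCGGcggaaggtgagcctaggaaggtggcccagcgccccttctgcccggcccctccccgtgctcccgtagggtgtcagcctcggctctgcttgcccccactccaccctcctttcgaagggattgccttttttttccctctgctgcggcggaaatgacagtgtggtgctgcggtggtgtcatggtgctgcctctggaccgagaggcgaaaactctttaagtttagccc
The Trim67 window holds 6 GC boxes, 28 CpG dinucleotides and 67.0% G and C, against a median of 7 CpG dinucleotides and 52.7% over the 32851 windows of the genome, and no match to GCGNGGGCG. Of all windows, 5.55% hold GCGNGGGCG on either strand, 0.612% the form GCGTGGGCG, 2.91% the form GCGGGGGCG and 35.7% the GC box. The Mid2 window, with 63.3% G and C, has its single match, GCGGGGGCG on the plus strand, starting 183 bases before the start site and overlapping a GC box. The windows of Trim9, Trim46 (3 windows) and Mid1 (3 windows) hold no match to the consensus. These are letters in a window and not measured binding sites.

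Each mouse gave 29661984 to 42357981 counts over all genes, 50.0% to 66.3% of them mitochondrial. Levels are given as CPM, counts per 1000000 of the library size after TMM normalization, which sets libraries so that most genes keep the same level. Egr1 itself had 353, 241 and 711 counts in Egr1+/+ replicates 1 to 3 and 103, 84 and 57 in the Egr1-/- mice. It was lower in every Egr1-/- mouse, in the direction the labels call for, at a log2 fold change of -2.19 (SE 0.299, edgeR adjusted p 0.0878). The 8 adipocyte markers, among them Adipoq and Plin1, summed to between 4913 and 6562 CPM in each mouse.

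Trim67 had 5.73, 4.23 and 4.01 CPM in Egr1+/+ replicates 1 to 3 and 15.2, 12.5 and 16.3 CPM in Egr1-/- replicates 1 to 3. The genotypes did not overlap, and the lowest Egr1-/- mouse stood 2.17-fold above the highest Egr1+/+ mouse. The counts behind these levels were 197, 127 and 173 for Egr1+/+ animals, and 505, 386 and 505 for Egr1-/- animals. Means were 4.66 ± 0.938 CPM for the Egr1+/+ group and 14.7 ± 1.98 CPM for the Egr1-/- group (SD, n = 3 each), a 3.15-fold difference. The log2 fold change was 1.65 with a standard error of 0.184 and a 95% interval of 1.24 to 2.07. Because Trim67 was chosen by this contrast, its size can be overstated, and the interval is a description and no test. The spread between mice of a genotype was ordinary: the residual SD of Trim67 on the log2 scale was 0.24, and 50.4% of tested genes had a larger one. In bulk tissue a change in the number of cells that make Trim67 and a change in its RNA per cell cannot be told apart.

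Trim67 was chosen by its adjusted p in this contrast, which edgeR put at 0.0473 after Benjamini-Hochberg correction of the quasi-likelihood p-values. There 3 of 17667 genes (0.017%) passed the threshold of 0.05. The other 2 were the pseudogenes Eif3s6-ps2 and Gm8822, so Trim67 was the single protein-coding gene past it, just inside at the same adjusted p. The first genes outside were Gk, the glycerol kinase, and Adra1a, an alpha-1 adrenergic receptor, both at 0.0748. Whether Trim67 stayed inside depended on the processing. Its log2 fold change stayed between 1.51 and 1.82 in 15 alternatives, and its adjusted p was below 0.05 in 6 of them. The lowest were 6.01e-15 in edgeR without a filter on low counts and 2.01e-11 in DESeq2, the program the study used. Those fits also called more genes, 552 of 38261 and 366 of the 13899 with an adjusted p. Since Trim67 was chosen by this contrast, these values are no separate test. With 1 mouse left out the edgeR adjusted p of Trim67 lay between 0.0484 and 0.244. It was below 0.05 in 1 case, without Egr1-/- replicate 1.

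**Figure D1:**
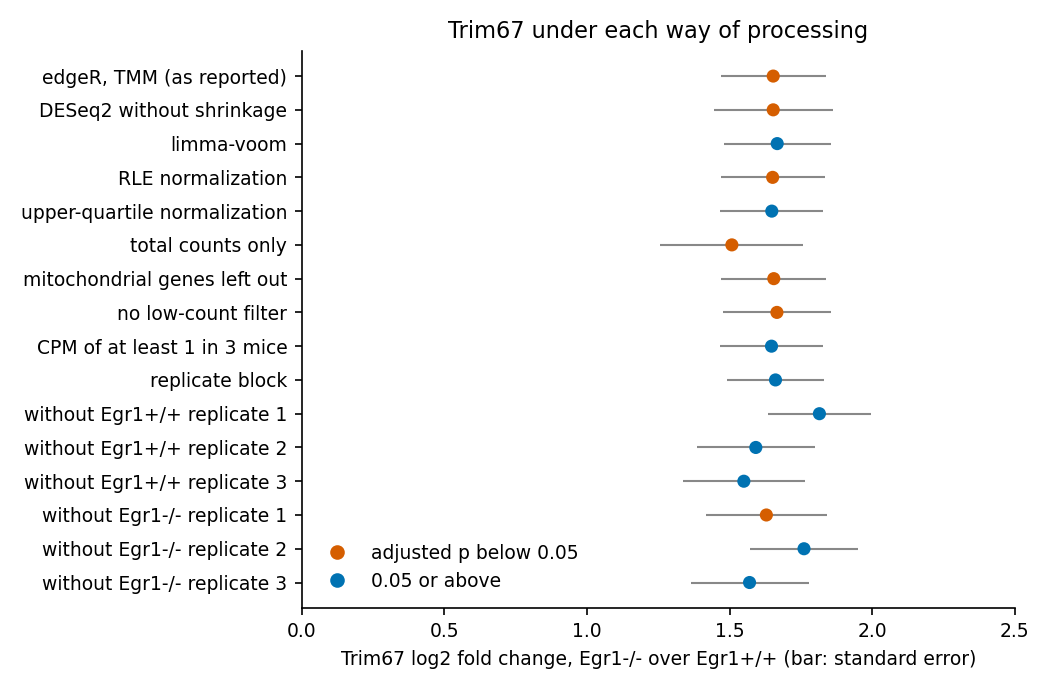
The log2 fold change of Trim67 (Egr1-/- over Egr1+/+, horizontal axis, bars are standard errors) under the reported edgeR fit and 15 alternatives (vertical axis). Values run from 1.51 to 1.82, and orange points mark an adjusted p below 0.05, blue points 0.05 or above.

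Trim9, the closest relative of Trim67, was barely detected in this tissue. Its counts were 10, 13 and 0 in Egr1+/+ tissue, then 7, 5 and 2 in Egr1-/- tissue, under the filter for testing. In CPM these were 0.291, 0.433 and 0 against 0.210, 0.161 and 0.0647. The genotypes overlapped, with an exact two-sided permutation p of 0.5, where 0.1 is the smallest that 3 mice against 3 allow. The 0 counts of Egr1+/+ replicate 3 allow a level of up to 0.0696 CPM, covering counting error only. A difference in Trim9 was therefore not detectable at this depth.

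Trim46, the axonal microtubule bundler, was at a similarly low level and was not tested either. It had 4, 7 and 9 counts in Egr1+/+ and 12, 8 and 7 counts in Egr1-/- mice, or 0.116, 0.233 and 0.209 against 0.360, 0.258 and 0.226 CPM. The ranges overlapped slightly, with an exact two-sided permutation p of 0.2. Its exons overlap those of Krtcap2 on the opposite strand by 239 bases. Krtcap2 had 272 to 487 counts in Egr1+/+ and 219 to 307 in Egr1-/- mice, and how many of its reads were counted as Trim46 was not tested.

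Trim36 was low but steadily detected. Its levels were 2.27, 2.53 and 1.81 CPM in Egr1+/+ and 2.04, 2.20 and 1.81 CPM in Egr1-/- mice, from 56 to 78 counts per mouse. The genotypes overlapped almost fully, at 2.20 ± 0.365 and 2.02 ± 0.194 CPM (SD, n = 3 each). The log2 fold change was -0.12 with a 95% interval of -0.66 to 0.41 and an edgeR adjusted p of 0.894. Trim36 lies on the chromosome of Egr1, 11.3 Mb away.

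Mid1 varied most among the 4 tested members. It stood at 20.2, 18.1 and 5.66 CPM in Egr1+/+ and 12.2, 7.43 and 4.24 CPM in Egr1-/- mice. The third replicate was the lowest of each genotype, and the ranges overlapped. Within Egr1+/+ mice the highest level was 3.57-fold the lowest, and within Egr1-/- mice 2.87-fold, so that its residual SD of 0.892 on the log2 scale was exceeded by 3.91% of tested genes. The means were 14.7 ± 7.85 and 7.94 ± 3.99 CPM (SD, n = 3 each). The fit gave a log2 fold change of -0.88 with a 95% interval of -1.95 to 0.20 and an adjusted p of 0.572 in edgeR, so the difference was not larger than the spread between mice. Without a filter on low counts its adjusted p was 0.00032 at a log2 fold change of -0.86, in a fit of 38261 genes.

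Mid2 was the steadiest member. Its levels were 27.0, 24.1 and 27.7 CPM in Egr1+/+ and 28.9, 21.6 and 23.8 CPM in Egr1-/- mice, from 670 to 1194 counts. The ranges overlapped, and the highest mouse was 1.34-fold the lowest. The fitted difference was -0.08 on the log2 scale with a standard error of 0.134 and a 95% interval of -0.39 to 0.22, with an edgeR adjusted p of 0.87. This interval does not reach the size of the Trim67 difference, which can be overstated because Trim67 was chosen by it. Of the 3 tested members other than Trim67, none passed the edgeR threshold (0.017% of all tested genes did). An unadjusted p below 0.05 in edgeR was reached by none (10.7% of all tested genes). DESeq2 called none of them, and 2.63% of all genes with an adjusted p. The genotypes separated for none, where 8.15% of all tested genes were higher and 8.1% lower in every Egr1-/- mouse. For 3 genes, counts of 0 lie near these shares.

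**Figure D2:**
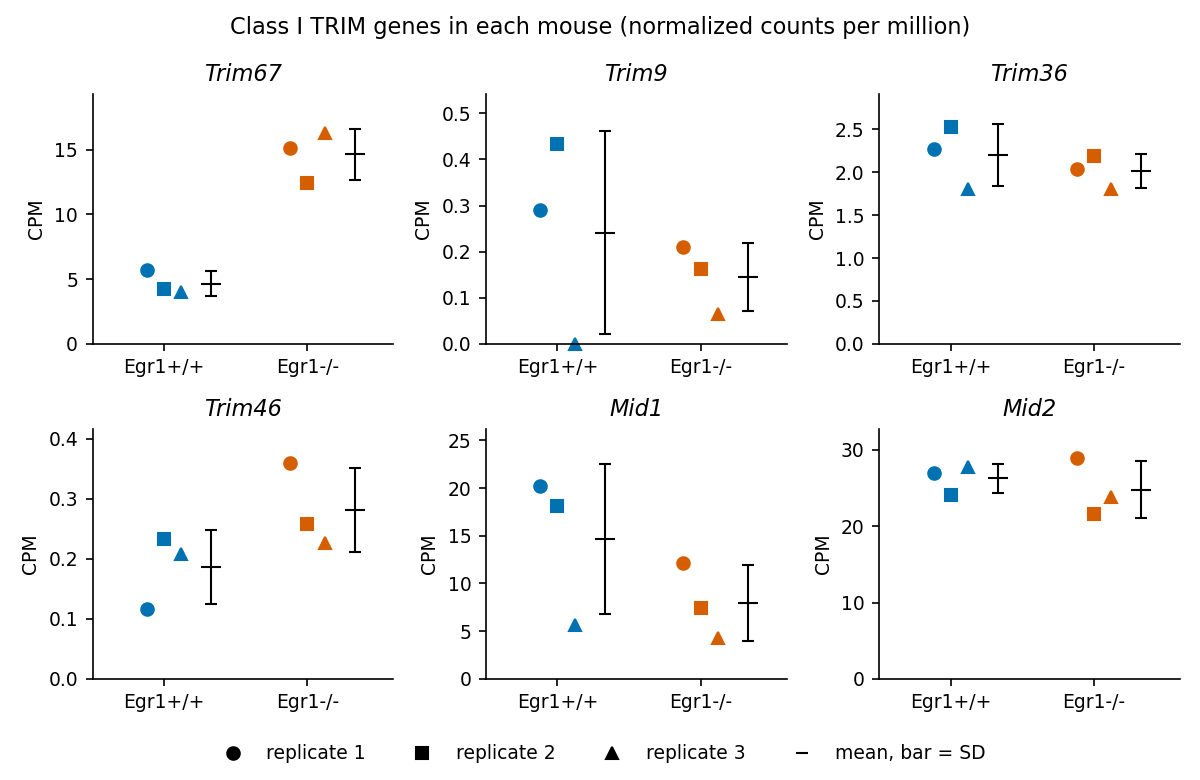
Normalized levels (CPM, vertical axes from 0, each with its own scale) of the 6 members in the 3 Egr1+/+ (blue) and 3 Egr1-/- mice (orange), with symbols for replicates and bars for mean ± SD. The genotypes separate for Trim67, 4.01 to 5.73 against 12.5 to 16.3 CPM, and overlap for the other members.

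The members can be compared with each other only per length. Divided by the bases of exon in the annotation (8744 for Trim67, 14203 for Trim9, 4933 for Trim36, 3792 for Trim46, 6720 for Mid1 and 8114 for Mid2), Egr1+/+ means were 3.24 CPM per kb for Mid2, 2.18 for Mid1, 0.533 for Trim67, 0.447 for Trim36, 0.0491 for Trim46 and 0.0170 for Trim9. Among neighbours in this order, Mid2 and Mid1 overlapped between mice, as did Trim67 and Trim36, while every Egr1+/+ mouse had more Mid1 than any had Trim67. In Egr1-/- mice the order was Mid2 at 3.05, Trim67 at 1.68, Mid1 at 1.18, Trim36 at 0.409, Trim46 at 0.0743 and Trim9 at 0.0102 CPM per kb. There Trim67 stood clear of Trim36 and of Mid2, and overlapped with Mid1. The share of tested genes with a lower level per kb went from 23.5% to 48.4% for Trim67, against 66.2% and 64.2% for Mid2. Among all 71 TRIM genes in the tables Trim67 ranked 41 in Egr1+/+ and 30 in Egr1-/- mice per kb, and Mid2 18 and 19.

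**Figure D3:**
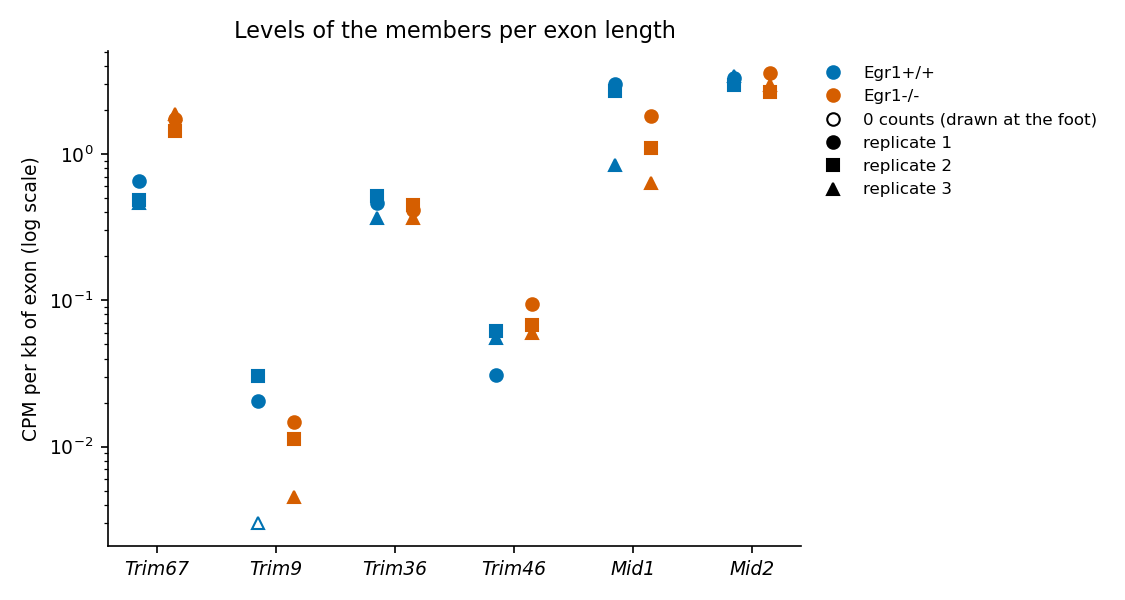
CPM per kb of exon (log axis) of the 6 members in each mouse, Egr1+/+ in blue and Egr1-/- in orange, with an open symbol at the foot for the Trim9 sample with 0 counts. Trim67 moves from beside Trim36 in Egr1+/+ mice (0.459 to 0.656 CPM per kb) to the range of Mid1 in Egr1-/- mice (1.43 to 1.87 CPM per kb).

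Ratios between members within a mouse do not depend on how libraries are scaled. Trim67 counts were 0.213, 0.175 and 0.145 of Mid2 counts in Egr1+/+ and 0.525, 0.576 and 0.685 of them in Egr1-/- mice. Relative to Trim36 they were 2.53, 1.67 and 2.22 times in Egr1+/+ and 7.43, 5.68 and 9.02 times in Egr1-/- mice. Both ratios separated the genotypes without overlap, as Trim67 alone does. Trim67 was chosen for its difference, and Mid2 and Trim36 differed little. The separation of these ratios, and of the shares below, follows from that choice and is no further support. The share of Trim67 in the summed CPM of the members was 10.3%, 8.52% and 10.2% in Egr1+/+ and 25.8%, 28.2% and 35.1% in Egr1-/- mice. The sum itself overlapped, at 39.4 to 55.6 against 44.1 to 58.8 CPM.

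The members lie on 5 chromosomes and are distinct enough in sequence for reads to be told apart. Positions are those of GENCODE M21 on GRCm38. Trim67 (ENSMUSG00000036913.14) lies at chr8:124793092-124834713 on the plus strand with 10 exon blocks, Trim9 (ENSMUSG00000021071.15) at chr12:70244533-70347614 on the minus strand, and Trim46 (ENSMUSG00000042766.17) at chr3:89234177-89246309 on the minus strand. Mid1 (ENSMUSG00000035299.16) lies at chrX:169685199-170005736 and Mid2 (ENSMUSG00000000266.11) at chrX:140664599-140767715, both on the plus strand, and Trim36 (ENSMUSG00000033949.11) at chr18:46165300-46212607 on the minus strand. The longest run of identical bases between the exons of any pair was 26, between Trim9 and Mid1, under the read length of 50 bases.

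Of the 50-base windows of Trim67 exons, 1.23% (107 of 8730) also occur in another gene, 91 of them in Gm16163, a gene on the same strand that shares 140 exon bases with Trim67. Gm16163 had 12, 12 and 27 counts in Egr1+/+ and 26, 25 and 25 in Egr1-/- mice, few against the counts of Trim67. Shared windows made up 1.06% of Trim9, 1.66% of Trim36, 4.95% of Trim46 and 0.358% of Mid2. Mid1 stood apart with 28.7%, since 1033 of its windows also occur in the pseudogene Mid1-ps1, 366 in Gm21742 and 856 in G530011O06Rik, which overlaps Mid1 by 951 exon bases on the opposite strand. Mid1-ps1 and Gm21742 are annotated on the Y chromosome, which these females lack, so they can give no reads to Mid1. Mid1-ps1 had 0 to 3 counts and Gm21742 had 0 in each mouse. G530011O06Rik had 53, 139 and 64 counts in Egr1+/+ and 75, 23 and 24 in Egr1-/- mice. How far these 3 genes take reads from Mid1, or G530011O06Rik gives reads to it, was not tested. The counts of Mid1 are uncertain to that extent.

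The neighbours of Trim67 on its chromosome showed smaller differences, which is a description, since Trim67 was chosen for its own difference. Of 23 genes lying within 500 kb, 14 were tested, 8 with a positive and 6 with a negative log2 fold change. None passed in edgeR (lowest adjusted p 0.376), where 0.017% of all tested genes did. DESeq2 called none of them, and 2.63% of all genes with an adjusted p. Of the 14, 1 had an unadjusted p below 0.05, in the positive direction, where 10.7% of all tested genes did. Their median log2 fold change was 0.01, beside 0.00 over all tested genes. Every Egr1-/- mouse was higher for 3 of the 14 genes and lower for 1, where 8.15% and 8.1% of all tested genes separated in these directions. On the near side, Arv1, an endoplasmic reticulum protein of sterol transport, lay at -59.0 kb from Trim67 and had a log2 fold change of 0.49 (SE 0.288, edgeR adjusted p 0.601), and Ttc13, at -71.1 kb, 0.02 (SE 0.103, adjusted p 0.958). On the far side the overlapping Gm16163 had 0.78 (SE 0.387, adjusted p 0.518), 2810004N23Rik, 2.23 kb away, -0.41 (SE 0.199, adjusted p 0.507), and Gnpat, a peroxisomal enzyme of ether lipid synthesis at 28.3 kb, 0.31 (SE 0.114, adjusted p 0.376). The separation of Arv1, Gnpat and Gm16163 was lost when libraries were scaled by total counts alone, and that of Trim67 was not. This contrast too is a description, given how Trim67 was chosen.

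**Figure D4:**
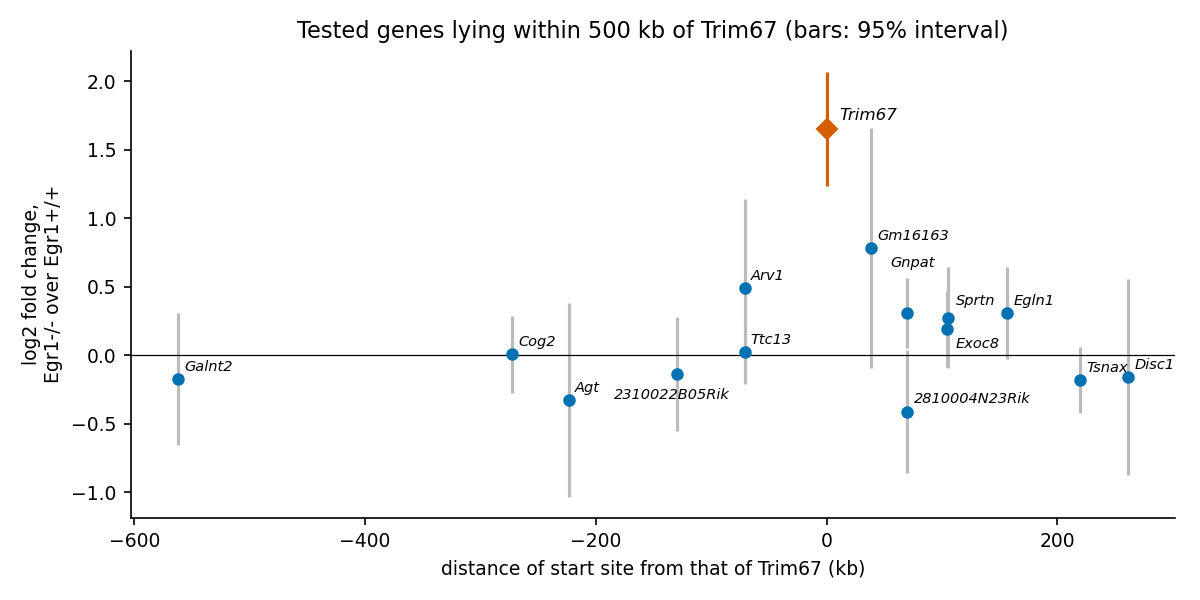
The log2 fold change (Egr1-/- over Egr1+/+, vertical axis, bars are 95% intervals) of Trim67 (orange diamond) and of the 14 tested genes lying within 500 kb of it, by the distance of their start sites in kb. Trim67, which was chosen for its difference, stands at 1.65, and the neighbours lie between -0.41 and 0.78.

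The rest of the TRIM family was examined in the same fit. Of 65 other TRIM genes 49 were tested, of which 25 had a positive and 24 a negative log2 fold change, with a median of 0.00 and a range of -1.20 to 0.75. None passed the threshold in edgeR (lowest adjusted p 0.224), where 0.017% of all tested genes did. DESeq2 gave an adjusted p for 40 of the 49 and called 0, where it called 2.63% of all genes with an adjusted p. Every Egr1-/- mouse was higher for 5 of the 49 and lower for 2, where 8.15% and 8.1% of all tested genes separated in these directions. At an unadjusted p below 0.05 there were 5 in the positive and 1 in the negative direction, 6 of 49 against the 10.7% of all tested genes. The split of 25 and 24 became 18 and 31 with total counts alone. Trim30a, an interferon-induced gene, had a log2 fold change of 0.66 (SE 0.230, adjusted p 0.344) and Trim34a one of 0.65 (SE 0.243, adjusted p 0.385). Trim65, a ligase of the MDA5 pathway, had 10.3, 9.46 and 9.40 CPM in Egr1+/+ and 13.5, 14.2 and 13.0 CPM in Egr1-/- mice, differing by 0.49 on the log2 scale (SE 0.120, edgeR adjusted p 0.224). These did not overlap, except under total-count scaling. Trim25, which acts on the RNA sensor RIG-I, had 0.30 (SE 0.133, adjusted p 0.467). The difference of Trim67 was outside the range of the other TRIM genes, which is a description, since Trim67 was chosen for it.

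**Figure D5:**
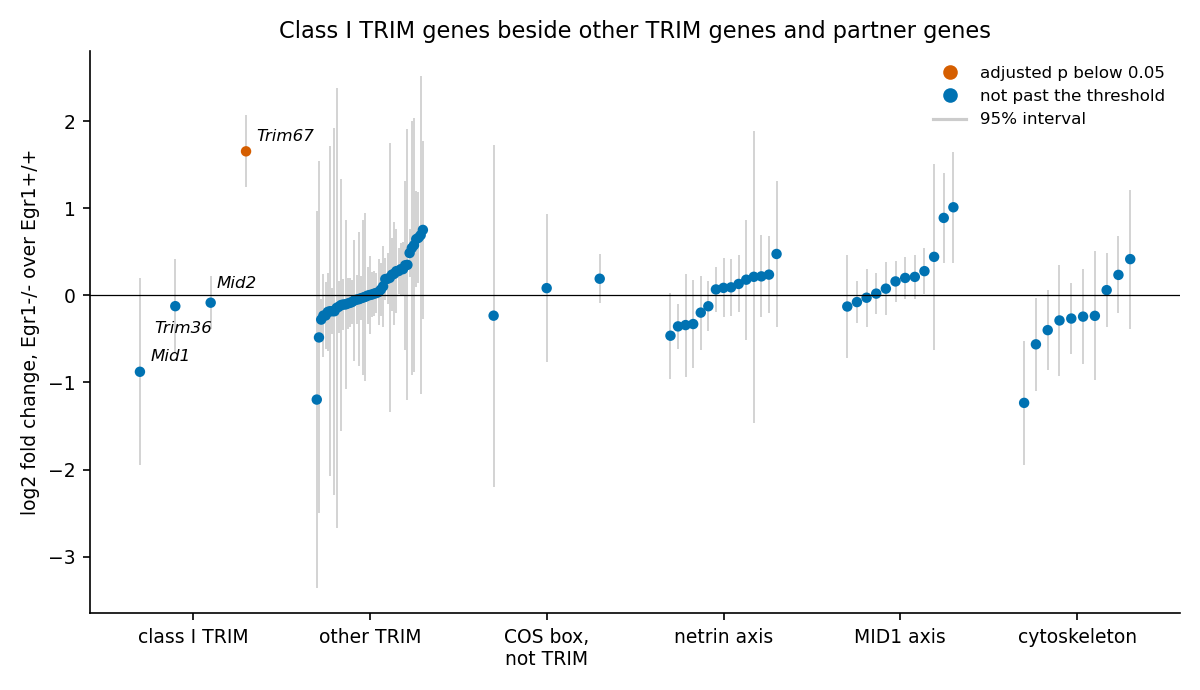
The log2 fold change (Egr1-/- over Egr1+/+, vertical axis, grey bars are 95% intervals) of each tested gene among the class I TRIM genes (4), other TRIM genes (49) and the partner groups (3, 15, 12 and 10 genes), ordered by value within a group. Trim67 is the only gene drawn here with an adjusted p below 0.05, by which it was chosen, and many wide intervals cross 0.

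Genes of the pathways in which the class I TRIM proteins act, or that share only their COS box, were taken as 4 groups. Together called partner genes here, they were 45 genes in all, 40 of them tested. A gene did not have to bind a TRIM protein to be listed. None passed in edgeR (lowest adjusted p 0.227), and 3 in each direction, 6 of 40, had an unadjusted p below 0.05, where 10.7% of all tested genes did. DESeq2 gave an adjusted p for 37 of them and called 2 higher and 1 lower, or 3 of 37 where it called 2.63% of all genes with an adjusted p. The groups' median differences depended on the scaling of the libraries: with total counts alone the median of all tested genes moved by -0.15 on the log2 scale, and the median of the netrin group turned from 0.09 to -0.04.

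The netrin group holds netrins, their receptors and the proteins that Trim9 and Trim67 bind. Of 15 tested genes 9 had positive and 6 negative log2 fold changes, and 1 separated the genotypes, near the background of 8.15% of all tested genes in the higher and 8.1% in the lower direction. With total counts alone 5 were lower in every Egr1-/- mouse. The 1 was Enah, the actin regulator Mena, with 29.5, 25.3 and 25.08 CPM in Egr1+/+ and 21.4, 20.6 and 20.4 CPM in Egr1-/- mice. Every Egr1-/- mouse was lower, at a log2 fold change of -0.36 (SE 0.112, edgeR adjusted p 0.305). The ligand Ntn1 had -0.46 (SE 0.218, adjusted p 0.491) and Ntn4, a netrin of basement membranes, -0.33 (SE 0.223, adjusted p 0.66). The receptor Dcc had 5 to 17 counts per mouse and was not tested. Its relative Neo1 was plainly present at 28.1 to 37.4 CPM, with a log2 fold change of -0.13 (SE 0.126, adjusted p 0.785). Vasp, another actin regulator and a partner of Trim9 and Trim67, had 0.13 (SE 0.145, adjusted p 0.809), and Prkcsh, the 80K-H protein bound by Trim67, 0.07 (SE 0.113, adjusted p 0.875).

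The Mid1 group holds alpha4 (Igbp1), protein phosphatase 2A subunits, mTOR, the MID1-interacting protein Mid1ip1 and, by pathway only, Thrsp and the acetyl-CoA carboxylases. Its 12 genes were all tested, 9 with positive and 3 with negative log2 fold changes, with a median of 0.18 (0.04 with total counts alone), and 6 were higher in every Egr1-/- mouse, where 8.15% of all tested genes were. With total counts alone 1 of the 12 was (Acacb), and Mtor and Thrsp overlapped. Thrsp, also called Spot 14, a lipogenic protein of fat cells, stood at 211, 139 and 142 CPM in Egr1+/+ and 227, 283 and 484 CPM in Egr1-/- mice. The genotypes were close but did not overlap, except under total-count scaling, and the log2 fold change was 1.01 (SE 0.281, adjusted p 0.252 in edgeR and 0.00521 in DESeq2). Acacb, the carboxylase that sets fatty acid entry into mitochondria, had 56.5, 92.5 and 49.8 against 117, 106 and 144 CPM. All Egr1-/- mice were higher, at a log2 fold change of 0.89 (SE 0.229, adjusted p 0.227 in edgeR and 0.00566 in DESeq2). Mtor had 0.28 (SE 0.117, edgeR adjusted p 0.445), Mid1ip1 -0.13 (SE 0.262, adjusted p 0.9) and Igbp1 -0.08 (SE 0.105, adjusted p 0.845).

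The cytoskeleton group holds tubulins, microtubule-associated proteins and partners of Trim46 and Trim36. Of 10 tested genes 3 had positive and 7 negative log2 fold changes. Tubb4a, a beta-tubulin of nerve tissue, had 3.14, 2.66 and 3.22 CPM in Egr1+/+ and 1.92, 0.936 and 0.970 CPM in Egr1-/- mice. The genotypes did not overlap, at a log2 fold change of -1.23 (SE 0.316, adjusted p 0.227 in edgeR and 0.0235 in DESeq2). The microtubule-associated genes Map1b and Map2 had -0.56 (SE 0.238, edgeR adjusted p 0.447) and -0.40 (SE 0.204, adjusted p 0.54). The COS box also occurs in proteins outside the TRIM family. Of 4 such genes 3 were tested, and Fsd1l had 0.19 (SE 0.126, adjusted p 0.65), Fsd2 0.08 (SE 0.376, adjusted p 0.959) and the striated muscle gene Cmya5 -0.23 (SE 0.869, adjusted p 0.949), the last with 8.44 to 86.0 CPM between mice.

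Markers of other cells were set beside Trim67, whose textbook sites are neuronal. Of 13 neuron markers 1, Th of sympathetic nerves, was at 0 in every mouse, 3 had under 10 counts in every mouse, and their sum was 11.3 to 18.4 CPM in Egr1+/+ and 6.95 to 11.5 CPM in Egr1-/- mice, overlapping except under total-count scaling, where it was lower in every Egr1-/- mouse. Gap43 gave the most to this sum, at 11.6, 6.46 and 7.49 CPM in Egr1+/+ and 4.83, 3.23 and 2.59 CPM in Egr1-/- mice. Of 8 tested neuron markers 3 had positive and 5 negative log2 fold changes, and only Gap43 separated the genotypes. The part of nerve and of the cells below in the Trim67 difference was not tested. The sum of 9 Schwann cell markers was lower in every Egr1-/- mouse, 230 to 305 against 337 to 472 CPM, and so was that of 6 progenitor markers, 421 to 579 against 779 to 839 CPM. The 8 adipocyte markers, most of whose sum is Fabp4, summed to less in every Egr1-/- mouse, 4913 to 5931 against 6204 to 6562 CPM, but singly 3 were lower in every Egr1-/- mouse (Adipoq, Lep and Retn), 1 was higher (the lipase gene Lipe, except with total counts alone) and 4, Fabp4 included, overlapped. Muscle, epithelial and lymphocyte markers overlapped: 9 muscle markers summed to 204 to 3298 CPM in Egr1+/+ and 96.6 to 2629 in Egr1-/- mice, 8 epithelial markers to 2.94 to 14.8 and 8.02 to 11.4, and 7 lymphocyte markers to 87.1 to 94.7 and 68.8 to 171.

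The sum of 10 beige adipocyte markers, to which Ucp1 gave the most, separated the genotypes as Trim67 did. They summed to 702, 566 and 551 CPM in Egr1+/+ and 1353, 963 and 1598 CPM in Egr1-/- mice, with no overlap, and all 9 that were tested had positive log2 fold changes, none past the edgeR threshold and 7 past that of DESeq2, which called 2.63% of all genes. Cox7a1 and Slc27a2 overlapped between genotypes, and Elovl3 was too low to test. From these same libraries the study named Ucp1, Cidea, Dio2, Ppargc1a and Cox8b as upregulated. For them the difference was known beforehand and is no further support. Ucp1, the uncoupling protein that defines thermogenic fat cells, had 400, 316 and 305 against 858, 571 and 949 CPM, a log2 fold change of 1.22 (SE 0.207, edgeR adjusted p 0.151). The part of beige adipocyte content in the Trim67 difference was not tested.

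The genes whose levels followed Trim67 most closely over the 6 mice, by Pearson's r of log2 CPM over all tested genes, were Acot11 (0.995), Eif3s6-ps4 (0.995), Lmtk2 (0.993), Slc4a4 (0.991) and Phospho1 (0.990). With 3 mice in each genotype and Trim67 split between them, such values mainly pick genes that differ in the same direction, and they are given as a description. Acot11, a fatty acyl-CoA thioesterase, had 5.30, 4.13 and 3.60 CPM in Egr1+/+ and 12.4, 9.36 and 13.6 CPM in Egr1-/- mice. Its log2 fold change was 1.45 with a standard error of 0.204 and an edgeR adjusted p of 0.0928. Slc4a4, a sodium bicarbonate transporter, moved less, from 57.9 to 62.8 CPM in Egr1+/+ to 81.6 to 90.5 CPM in Egr1-/- mice. For the other tested members r was -0.34 for Trim36, -0.41 for Mid1 and -0.23 for Mid2.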

How the data were processed

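Total RNA of the fat pads was depleted of ribosomal RNA and made into strand-specific libraries. Per the labels, reads were 50-bp and single-end, while the paper's methods give paired-end reads. The authors mapped reads with TopHat2 and Bowtie2 to mm10 (GRCm38.p4), counted them on GENCODE M8 genes with featureCounts and deposited raw counts per gene, without normalization. The strand and multimapping settings of the counting are not given in the sources used here.

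Of 47069 identifiers, 46488 matched GENCODE M21 by Ensembl identifier without version, which gave symbols and exon lengths. Genes that passed filterByExpr (minimum count 10), 17667 in all, were fitted in R 4.3.3 with edgeR 4.0.16 (TMM, quasi-likelihood, genotype as the only term). The Benjamini-Hochberg adjustment ran over all of them, with a threshold of 0.05. Log2 CPM used a prior count of 2. A standard error is the log2 fold change divided by the square root of F. DESeq2 1.42.0, limma 3.58.1 (voom), other normalizations and filters, a replicate block and leaving out each mouse were alternatives. Scripts were tested on simulated data. The mice were separate animals from several litters. Per the study's methods 1 Egr1+/+ and 1 Egr1-/- mouse were littermates, without saying which replicates they are. Total counts were 33718120, 30633901 and 36875648 in Egr1+/+ replicates 1 to 3 and 42357981, 29661984 and 29908114 in Egr1-/- replicates 1 to 3.

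The members and all gene lists were chosen with earlier results of these data known. Named genes were the members, Egr1 and Ucp1, the 3 lowest p-values and some preset partners of each partner list, the 4 largest changes among other TRIM genes with an unadjusted p below 0.05, the 2 nearest tested neighbours on each side of Trim67, its overlapping genes, and the 5 genes most correlated with it.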

Additional observations from a re-analysis of the deposited data

How the results depend on the processing

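The log2 fold change of Trim67 kept its direction in all 15 alternatives. The number of genes past the threshold, 3 in the reported fit (3 higher, 0 lower), was 366 with DESeq2, 1 with limma-voom, 0 with upper-quartile normalization, 79 with total counts alone (12 higher, 67 lower), 552 without a filter on low counts and 0 with CPM of at least 1 in 3 mice. With 1 mouse left out it ran from 0 to 59, the 59 without Egr1-/- replicate 1. Over the other TRIM genes, where 0 of 49 tested passed, 2 of 65 did without a filter (Trim30a and Trim12a). Over the members other than Trim67, 0 of the 3 tested passed in the reported fit. Without a filter all 5 were tested and 1 passed (Mid1, at an edgeR adjusted p of 0.00032). Over the partner genes 0 of 40 tested passed in the reported fit. In the alternatives 3 did with DESeq2 (Thrsp, Acacb, Tubb4a), 1 with total counts alone and 4 of 45 without a filter. Mid2 turned from -0.08 to 0.009 without Egr1-/- replicate 2, and its values ran from -0.207 to 0.009 with 1 mouse left out. Without a filter Trim9 had a log2 fold change of -0.65 (adjusted p 0.87) and Trim46 one of 0.61 (0.857). The cause of these shifts was not tested.

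No pairing of the mice by replicate number was seen. Deviations of same-numbered mice from their genotype means correlated at -0.09, 0.11 and -0.13, and 1 of 3 Egr1-/- mice correlated best with its own number. With 3 mice in each genotype such values cannot settle whether any mice were paired. In the fit blocked on replicate number, 0 genes passed, and the log2 fold change was 1.66 for Trim67 (adjusted p 0.142) and -0.82 for Mid1 (adjusted p 0.251).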

Other observations

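Some other TRIM genes varied widely between mice of a genotype. They were chosen for description after their values were seen. Trim63, Trim54, Trim55 and Trim72, TRIM genes of striated muscle, were low in every mouse and followed the summed muscle markers, which stood at 1071, 3298 and 204 CPM in Egr1+/+ and 96.6, 347 and 2629 CPM in Egr1-/- mice. Trim72, the membrane repair protein MG53, had 1.05, 4.36 and 0.580 CPM in Egr1+/+ and 0.240, 0.936 and 4.04 CPM in Egr1-/- mice. Trim63, the ligase MuRF1, ran from 0.162 to 3.56 CPM in Egr1+/+ and from 0.180 to 1.26 CPM in Egr1-/- mice. Both genotypes held a mouse with high and a mouse with low muscle values.

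Trim12a, Trim5 and Trim30d, members of clusters of antiviral TRIM genes, were lowest in Egr1+/+ replicate 1. Trim12a had 1.28, 15.3 and 28.4 CPM in Egr1+/+ and 12.1, 43.8 and 17.1 CPM in Egr1-/- mice. Trim5 had 0.524, 3.43 and 6.26 against 2.19, 7.10 and 3.85 CPM, and Trim30d 0.553, 3.33 and 6.89 against 4.08, 7.49 and 4.27 CPM. The genotypes overlapped for all of them, and since close copies of these genes can share reads, their counts are uncertain.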
